A study of Homo sapiens with 6 samples.

Results

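ESR1, PGR, GATA3, FOXA1, XBP1, SPDEF, ELF3, MUC1 and TFF1, the 9 genes described here, mark luminal breast epithelium and hormone receptor signaling. They were taken as every probe set annotated to exactly 1 of these symbols, which gave 30 of the 54613 probe sets tested, or 9 of 19775 genes. The cells were SUM159, an established line of human breast cancer of the triple-negative class, which lacks the clinical receptors for estrogen and progesterone and amplified ERBB2. Control cells carried the empty lentiviral vector pLVX-puro, and the other group carried pLVX-puro-hSCGB3A1, which encodes the secreted protein SCGB3A1. Both groups were selected with puromycin (2 µg/ml, 7 days) and then grown for 5 days as floating oncospheres in HuMEC medium with albumin and B27, seeded at 12500 cells/ml. Each group had 3 arrays, described as biological replicates. Whether these were separate transductions is not given in the sources used here, so the p-values cover only the spread among these arrays.

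Luminal cells line the ducts and alveoli of the breast, and part of them carry the estrogen receptor ESR1, which binds estrogen and then acts on DNA as a transcription factor. FOXA1 opens chromatin for ESR1, and GATA3 sustains the luminal fate and ESR1 itself. PGR and TFF1 are classical targets of ESR1. Loss of this program is a hallmark of basal and mesenchymal breast cancer, so the first question was how far each gene was read above background in SUM159 oncospheres, and the second was whether any of them differed in the arrays labelled SCGB3A1.

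Promoter sequence is shown for 3 of the genes with readings above background, from the RefSeq table used here (GRCh38.p14), to show where the searched motifs lie or are missing. XBP1 has 2 annotated starts, of which the one with a match is shown, MUC1 has 2 starts that share 1 match, and SPDEF has 1. Each run is the 250 bases before the annotated start, 5′ to 3′ on the strand of the gene, and capitals mark motif matches. XBP1 (chr22:28800570-28800819, minus strand) holds the endoplasmic reticulum stress response element in capitals. SPDEF (chr6:34556330-34556579, minus strand) holds none of the motifs searched. MUC1 (chr1:155192910-155193159, minus strand) holds a TATA box in capitals.
XBP1: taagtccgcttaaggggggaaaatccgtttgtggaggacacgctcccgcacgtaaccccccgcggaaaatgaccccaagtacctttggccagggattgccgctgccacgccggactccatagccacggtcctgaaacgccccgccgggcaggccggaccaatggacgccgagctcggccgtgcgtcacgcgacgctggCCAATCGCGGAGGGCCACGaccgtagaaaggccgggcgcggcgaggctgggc
SPDEF: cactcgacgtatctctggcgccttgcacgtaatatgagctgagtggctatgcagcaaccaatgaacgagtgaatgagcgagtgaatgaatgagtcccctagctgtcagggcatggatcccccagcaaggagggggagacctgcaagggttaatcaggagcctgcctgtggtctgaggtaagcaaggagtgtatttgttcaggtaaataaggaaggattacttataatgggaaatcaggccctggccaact
MUC1: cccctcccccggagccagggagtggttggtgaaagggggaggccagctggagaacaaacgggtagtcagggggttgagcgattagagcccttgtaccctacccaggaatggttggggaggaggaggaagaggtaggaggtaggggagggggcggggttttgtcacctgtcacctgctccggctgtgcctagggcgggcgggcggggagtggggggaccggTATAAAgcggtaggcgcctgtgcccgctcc

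The motifs were searched on both strands in 35116 such windows of 250 bases, of which 22 belonged to 8 of the 9 genes. TFF1 had no window, so its promoter was not searched. Some of the 22 overlap, such as those of MUC1, so they are not independent. The stress response element (CCAAT and CCACG with 9 bases between them) occurred in 26 windows (0.074%), 1 of them XBP1. The estrogen response element (GGTCA and TGACC with 3 bases between them) occurred in 0.0399% of all windows and in 0 of the 22, and its half-site AGGTCA, which overlaps it, in 12.1% and in 0 of the 22. The GATA site, searched only as AGATAA, occurred in 9.17% of windows and the forkhead site, searched only as TGTTTAC, in 2.98%, again with 0 of the 22. Other spellings of these sites were not searched, so the 22 windows may hold them. A TATAAA box occurred in 10.7% of all windows and in 4 of the 22, which belonged to ELF3, GATA3 and MUC1. These are matches of letters in a short window and carry no measurement of binding.

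The arrays did not show SCGB3A1 higher in the cells labelled for it. The study's methods say that transcript in the infected cells was checked by qPCR, which was not analysed here. The single probe set of SCGB3A1 read 6.80, 6.89 and 7.05 in control and 6.60, 6.92 and 6.71 in the arrays labelled SCGB3A1. The difference was -0.17 ± 0.096 on the log2 scale (SE, by limma, adjusted p = 0.83), its control mean of 6.91 lies within the background range given below, and whether it covers the sequence in the vector is not known here. Every direction below holds for the arrays as labelled. Control replicate 2 stood apart, with a score of 30.7 on the first principal component (38.0% of the variance), where the other arrays lay between -16.1 and 6.13. The deposited log2 values are coarse, with 3127 to 3959 distinct values per array. Between 6 and 7, where 17 of the 30 control means lay, an array held 77 to 107 distinct values in steps with a median of 0.0094 to 0.012. These steps were small beside the median control SD of the 30 probe sets, 0.12. In total RNA, fewer cells of a type and less RNA per cell cannot be told apart.

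With no detection calls in the table, background was taken from genes restricted to other tissues, such as pancreas and pituitary hormones, crystallins and sperm protamines. Casein genes were included too. These encode milk proteins of the breast, so this part of the reference is not foreign to the tissue. Of the 47 reference genes, 39 were measured by 62 probe sets. Their control means had a 5th percentile of 6.08, a median of 6.45 and a 95th percentile of 7.21, with a highest value of 7.98. Probe sets differ in how strongly they bind, so a level is set here against this range only and not against another gene. By this range, 8 of the 30 probe sets (4 of the 9 genes) read above the 95th percentile in control, where 40.8% of all probe sets did. The highest reference value was exceeded by 2 of them, 1 for XBP1 and 1 for GATA3. With 1 probe set per gene, 4 of 9 genes were above the 95th percentile, against 55.4% of all genes. With the lower quartile of all probe sets (6.44) as the limit instead, 23 of the 30 lay above it.

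**Figure D1:**
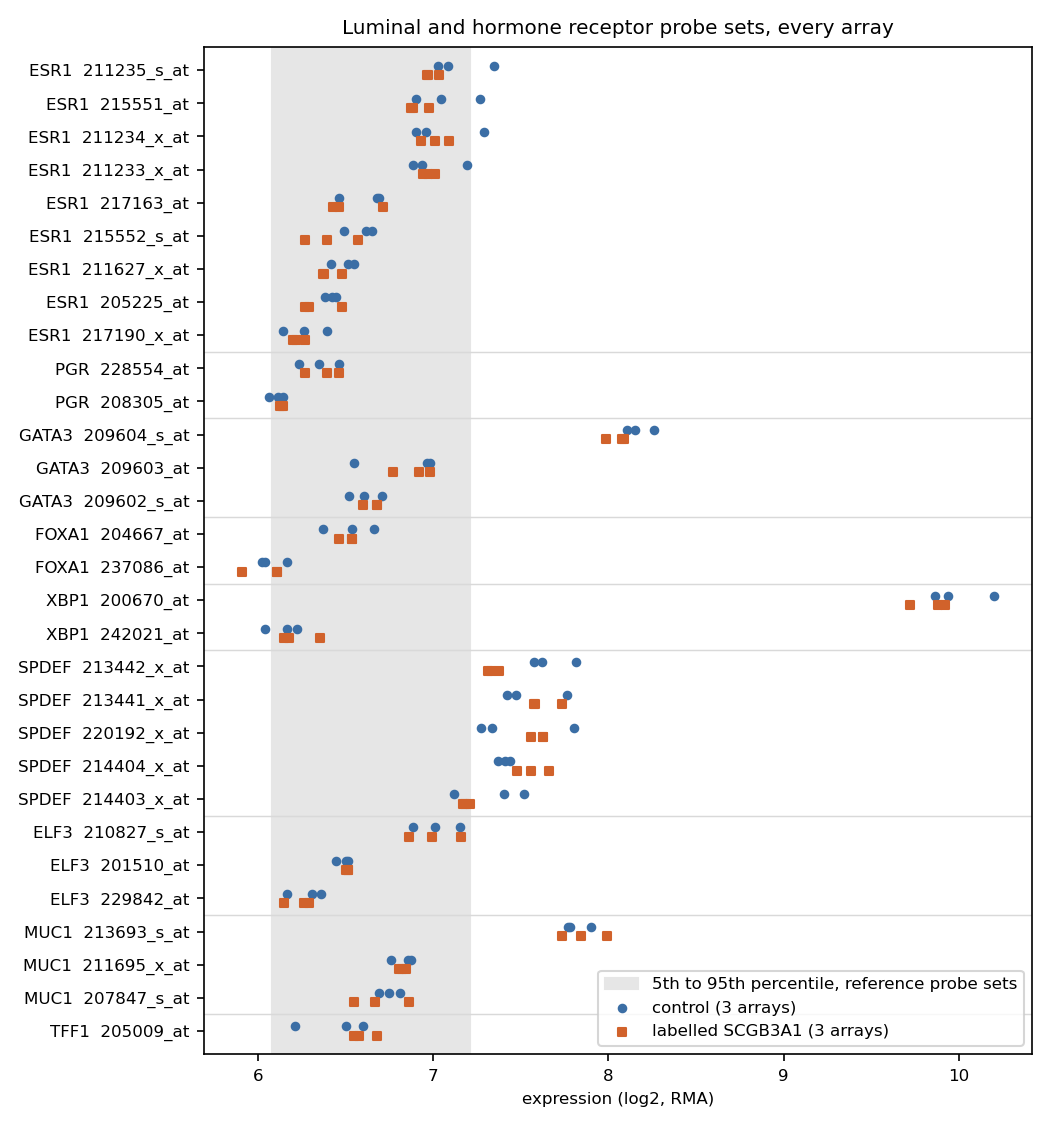
Log2 RMA expression (horizontal axis) of the 30 probe sets (vertical axis, grouped by gene) in each array, with circles for the 3 control arrays, squares for the 3 arrays labelled SCGB3A1 and gray for the 5th to 95th percentile of the reference probe sets, 6.08 to 7.21. By their control means, XBP1 (200670_at) and GATA3 (209604_s_at) lie to the right of the highest reference control mean, 7.98. The 5 SPDEF probe sets sit just beyond the gray range by their control means. The control means of ESR1, PGR, FOXA1, ELF3 and TFF1 lie within or below the gray range, although 3 single control readings of ESR1 (7.27 to 7.35) exceed it.

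Both hormone receptors were read at background. ESR1, the estrogen receptor, had 9 probe sets with control means of 6.27 to 7.16, none above the reference range. Its probe set 205225_at read 6.44, 6.38 and 6.43 in control and 6.48, 6.29 and 6.27 in the arrays labelled SCGB3A1. The control mean of this probe set lay in the middle of the reference range, with 46.8% of reference probe sets lower, and the groups overlap. Of the 9, 211235_s_at had the highest control mean, 7.16 ± 0.17 (SD, n = 3), and 91.9% of reference probe sets were lower. PGR, the progesterone receptor, had means of 6.35 ± 0.11 and 6.11 ± 0.040 (SD, n = 3) for its probe sets 228554_at and 208305_at, with 30.6% and 9.68% of reference probe sets lower.

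The lineage factors differed from each other in whether a probe set cleared background. FOXA1, the pioneer factor, read 6.53, 6.37 and 6.66 in control with 204667_at. Its other probe set averaged 6.08, below nearly all control means of the reference probe sets (3.23% lower). GATA3, a zinc finger factor, read 8.26, 8.15 and 8.10 in control with 209604_s_at, above all reference probe sets. Its other probe sets did not bear this out: 209603_at read 6.55, 6.98 and 6.96 and 209602_s_at read 6.61, 6.52 and 6.71, both within the range. GATA3 transcript was thus read above background by 1 of 3 probe sets.

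The epithelial ETS factors, which share the ETS DNA-binding domain, differed as well. ELF3 lay within the reference range with all 3 probe sets (control means 6.28 to 7.02). SPDEF lay just above it with all 5 (7.35 to 7.67), but every one of them is of the _x_at type, which the manufacturer marks as able to bind transcripts of other genes, so these levels are uncertain. Between 96.8% and 98.4% of reference probe sets were lower.

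XBP1, a transcription factor that expands the secretory pathway and is high in luminal cells, was the clearest reading. Its probe set 200670_at read 9.86, 10.20 and 9.94 in control and 9.88, 9.72 and 9.92 in the arrays labelled SCGB3A1. All 6 arrays lay far above the reference range, and the groups overlapped. The second probe set, 242021_at, was at background (control mean 6.14 ± 0.093, SD, n = 3). The table does not tell spliced from unspliced XBP1 transcript.

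Of the luminal products, MUC1, a mucin of the apical membrane, read 7.78, 7.90 and 7.77 in control with 213693_s_at, where 98.4% of reference probe sets were lower, and its other 2 probe sets were within the range (6.75 and 6.83). TFF1, a small secreted trefoil peptide and target of ESR1, read 6.50, 6.60 and 6.21 in control. Its control mean was at the middle of the reference range (50.0% lower).

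The labelled line was then checked against cell type markers. Of the defining luminal markers, the keratins KRT8 (control mean 10.83) and KRT18 (11.44) were above the reference range. KRT19 (6.54), the adhesion proteins CDH1 (6.27) and EPCAM (6.19), the claudins CLDN3 (7.05) and CLDN4 (6.90) and the receptor ERBB3 (7.10) were not. Over the list of other luminal genes, with a median control level of 6.86, 13 of 44 measured genes lay above it. Over all genes, 55.4% did. Over the basal and mesenchymal list, 20 of 20 measured genes did, from ZEB2 at 8.06 to VIM at 14.42. Among markers of blood, endothelial, fat and stromal cells, 5 of 17 did. They were COL1A1, PDGFRA, DPT, PECAM1 and PTPRC, which were named after their values were seen.

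**Figure D2:**
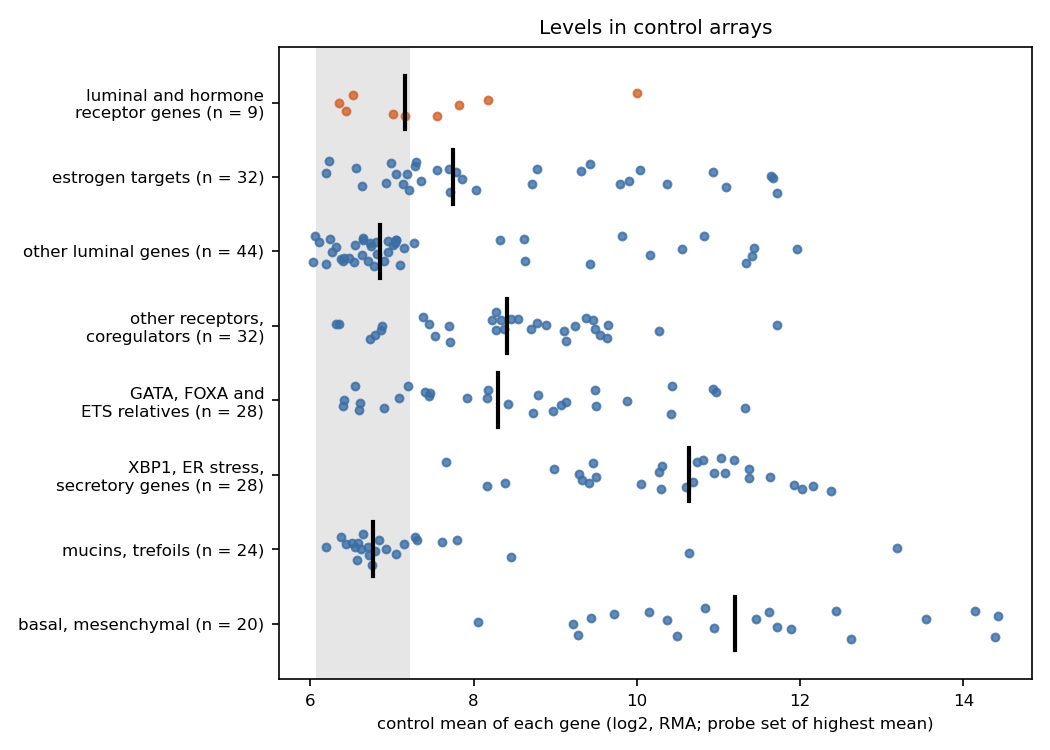
Control mean of each measured gene (horizontal axis, log2 RMA, probe set of highest mean) by gene list (vertical axis), with points for genes, bars for list medians and gray for the reference range of 6.08 to 7.21. Of the 9 luminal and hormone receptor genes, 4 lie beyond the gray range, against 55.4% of all genes, while all 20 basal and mesenchymal genes do.

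The comparison of the groups gave no call among these genes. Of the 30 probe sets, 0 passed adjusted p 0.05 by limma, and the adjusted p-values ran from 0.54 to 0.99, where 10 of 54613 probe sets (0.0183%) passed in all. At an unadjusted p under 0.05 there was 1 of 30, against 6.20% of all probe sets. It was lower (background 3.10%), and 0 were higher (3.09%). Under the criteria by which the study listed its signature genes (log2 fold change beyond 0.5, p under 0.05, adjusted p under 0.25), 0 of the 30 passed, against 0.0311% of all. The groups did not overlap for 3 of the 30 probe sets, 1 higher and 2 lower, against 11.2% of all probe sets (5.95% higher and 5.25% lower). With both directions together the members' shares were below the background, and for the lower direction alone they were above it by less than 1 probe set in 30. The median log2 fold change of the 9 genes was -0.012, against 0.011 over all genes.

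The 95% intervals bound what the arrays could have missed. Across the 30 probe sets they ran from -0.50 to 0.39 on the log2 scale, and without SPDEF from -0.37 to 0.38, and 29 of the 30 held 0. RMA draws weak signals together, so for probe sets at background these intervals describe the readings and not the transcript. The exception to 0 was 1 probe set of SPDEF.

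**Figure D3:**
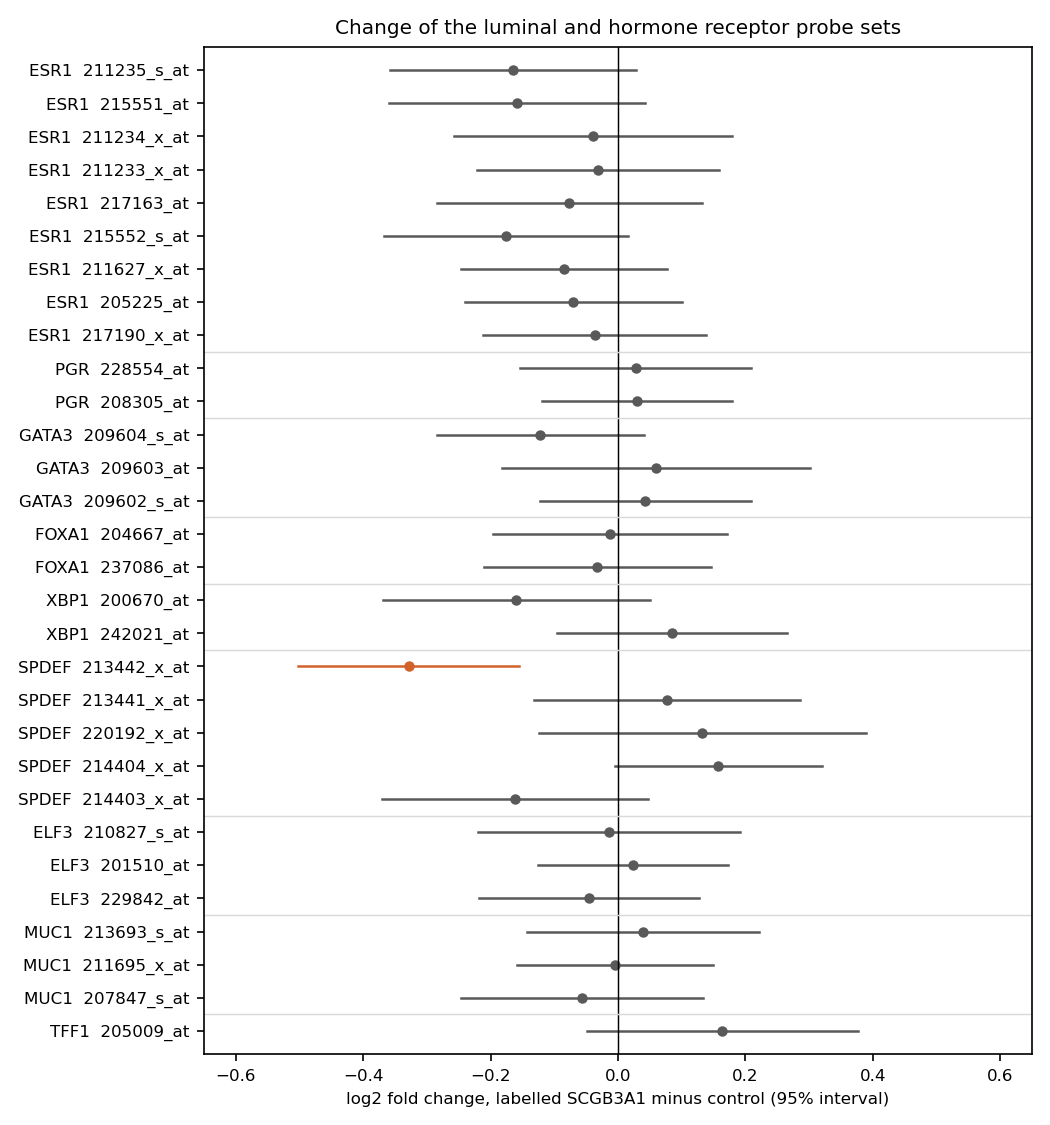
Log2 fold change, labelled SCGB3A1 minus control (horizontal axis), of the 30 probe sets (vertical axis) with 95% intervals from limma, in orange where the unadjusted p was under 0.05. Only SPDEF 213442_x_at (-0.33, adjusted p = 0.54) has an interval that leaves out 0, and no probe set passed adjusted p 0.05.

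All 9 probe sets of ESR1 had a log2 fold change below 0, from -0.18 to -0.031, and none passed (limma, adjusted p = 0.82 to 0.97). The share of all probe sets below 0 was 49.0%. Among the 69 genes with at least 9 probe sets, ESR1 was the 1 gene (1.45%) with a single sign throughout. The cutoff of 9 is ESR1's own number of probe sets. A single sign is harder to reach with more of them, so this share favors ESR1 and is no test. The ESR1 probe sets share a target gene and are not independent, and several are of the _x_at type. All 9 had control means within the reference range, so the common sign is one of readings at background. The largest difference was that of 215552_s_at, which read 6.49, 6.65 and 6.62 in control and 6.40, 6.57 and 6.27 in the arrays labelled SCGB3A1, so the lowest array was SCGB3A1 replicate 3 and the groups overlap. For 211235_s_at the values were 7.03, 7.35 and 7.09 in control and 7.04, 6.97 and 6.97 in the arrays labelled SCGB3A1. The difference was -0.17 ± 0.089 on the log2 scale (SE, adjusted p = 0.83 by limma). Control replicate 2 alone was high here. Without control replicate 1 the values of 211235_s_at and 215552_s_at were -0.23 and -0.22 (unadjusted p = 0.037 and 0.046, adjusted p = 0.77 for both). Without control replicate 2 that of 211235_s_at was -0.068, and 6 of the 9 probe sets were below 0 (-0.24 to 0.080). Without SCGB3A1 replicate 2, 8 of 9 were, and with any other array left out 9 of 9. PGR differed by 0.028 ± 0.084 and 0.030 ± 0.069 (SE, limma, adjusted p = 0.97 and 0.96).

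SPDEF probe sets went opposite ways. With 213442_x_at, values were 7.81, 7.62 and 7.57 in control and 7.32, 7.37 and 7.33 in the arrays labelled SCGB3A1. The difference was -0.33 ± 0.080 on the log2 scale (SE), or 0.796-fold (limma, unadjusted p = 0.0014, adjusted p = 0.54). The groups did not overlap, and with each array left out in turn the value ran from -0.38 to -0.26. With 214404_x_at, values were 7.41, 7.44 and 7.37 in control and 7.66, 7.56 and 7.48 in the arrays labelled SCGB3A1. The difference was 0.16 ± 0.075 on the log2 scale (SE, adjusted p = 0.82 by limma), also without overlap. The difference between these probe sets was not tested. Of the others, 214403_x_at read lower (-0.16) and 220192_x_at (0.13) and 213441_x_at (0.077) higher, and 220192_x_at ran from 0.033 to 0.30 with 1 array left out, the latter without control replicate 2. The mean over the 5 probe sets was -0.025. No direction can therefore be given for SPDEF.

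XBP1 had a difference of -0.16 ± 0.096 in log2 units (SE, limma adjusted p = 0.85) with 200670_at, where control replicate 2 was the highest array and SCGB3A1 replicate 2 the lowest. With 1 array left out it ran from -0.23 without control replicate 1 (unadjusted p = 0.049, adjusted p = 0.77) to -0.059 without control replicate 2, and without SCGB3A1 replicate 2 it was -0.099. GATA3 had -0.12 ± 0.075 (SE, adjusted p = 0.85) with 209604_s_at, which read 8.09, 7.98 and 8.08 in the arrays labelled SCGB3A1, all just below the lowest control at 8.10. Its probe sets at background read 0.060 and 0.043. MUC1 had 0.039 ± 0.084 (SE, adjusted p = 0.96) with 213693_s_at, and the groups overlapped.

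TFF1 had a difference of 0.16 ± 0.098 in log2 units (SE, limma adjusted p = 0.85), from control values of 6.50, 6.60 and 6.21 to 6.57, 6.68 and 6.55. Control replicate 3 was the low array, and without it the value was 0.050. Without control replicate 2 it was 0.25 (unadjusted p = 0.024, adjusted p = 0.76). FOXA1 had -0.012 and -0.033, and ELF3 had -0.014, 0.023 and -0.045. None of these exceeded the spread between replicates (limma, adjusted p = 0.95 to 0.99).

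**Figure D4:**
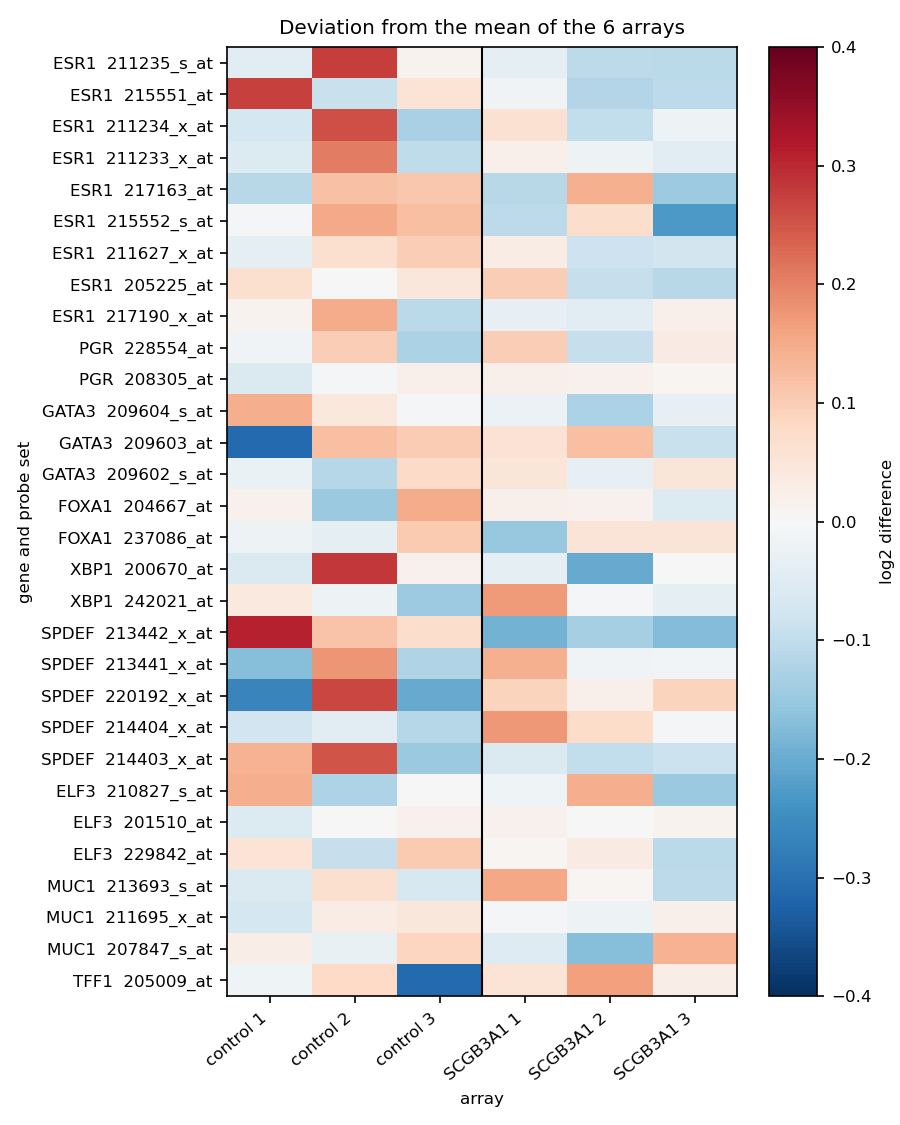
Difference of each array (horizontal axis) from the mean of the 6 arrays for each of the 30 probe sets (vertical axis), in log2 units from blue (lower) to red (higher). Control replicate 2 is the highest of the 6 arrays for 11 of the 30 probe sets, and the SPDEF rows differ in which arrays are high.

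Control replicate 2 bore on several of these values. It was the highest of the 6 arrays for 11 of the 30 probe sets and the lowest for 2, and its median deviation from the mean of the 6 arrays was 0.065, against -0.034 to 0.019 in the others. The median SD of the 30 probe sets was 0.12 in control and 0.074 in the arrays labelled SCGB3A1, while over all probe sets it was 0.089 and 0.086. Without control replicate 2, 5 of the 30 probe sets had an unadjusted p under 0.05, against 6.28% of all. These were 3 of SPDEF, 1 of ESR1 and 1 of TFF1, in both directions, and the smallest adjusted p was 0.57. Without control replicate 1 there were 4 (6.42% of all), without control replicate 3 or SCGB3A1 replicates 2 or 3 there were 2 (5.71%, 4.40% and 8.87%), and without SCGB3A1 replicate 1 there was 1 (4.31%). In each of these 6 fits 0 of the 30 passed adjusted p 0.05.

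Known targets and partners of these factors were then counted from listed genes of each role, each gene by its probe set of highest mean. Over all genes, 3.93% had an unadjusted p under 0.05 and a higher value and 2.89% a lower one, 6 genes (0.0303%) passed adjusted p 0.05, and in none of the lists below did a gene pass, although KRT5 did with an intensity trend in the fit. Of the estrogen target list, 32 of 34 genes were measured, and 3 were higher and 0 lower at that unadjusted threshold, with a median log2 fold change of 0.058. The smallest p-values were those of PTGES, a prostaglandin E synthase (0.27 ± 0.085 SE, limma, adjusted p = 0.72), CTSD, a lysosomal protease (0.21 ± 0.088, adjusted p = 0.78), and CA12, a carbonic anhydrase (0.21 ± 0.089, adjusted p = 0.78). For CA12, 4 of its 7 probe sets had values of 0.19 to 0.21 with no overlap between the groups, and the other 3 read -0.022 to 0.13. The second probe set of PTGES read -0.0023. The list median was 0.020 without control replicate 2. Of these genes, 22 of 32 were above the reference range in control, against 55.4% of all genes, although ESR1 was not. GREB1 (7.14), PDZK1 (6.23) and TFF3 (7.05), targets named after their values were seen, were within it.

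Of the other luminal genes (44 of 46 measured), 3 were higher and 1 lower at an unadjusted p under 0.05, with a median of 0.014. OVOL1, a zinc finger factor of epithelium, had 0.32 ± 0.096 (SE, limma, adjusted p = 0.72), EHF, an ETS factor related to ELF3, 0.22 ± 0.071 (adjusted p = 0.74), and SPINT2, an inhibitor of serine proteases, 0.23 ± 0.086 (adjusted p = 0.78). All of these had control means within the reference range (6.74, 6.55 and 6.95), and the other probe sets of OVOL1 and EHF read -0.024 and -0.094 to 0.14.

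Among other nuclear receptors and coregulators (32 of 38 measured), 2 were higher and 2 lower, with a median of -0.0073. EP300, an acetyltransferase that receptors recruit, had -0.38 ± 0.14 (SE, limma, adjusted p = 0.78), with overlap between the groups. VDR, the vitamin D receptor, had 0.20 ± 0.080 and ESRRG, an orphan receptor related to ESR1, 0.18 ± 0.074 (both adjusted p = 0.78), the latter within the reference range. The other probe sets of VDR read 0.029 to 0.11, that of ESRRG 0.11 and that of EP300 -0.24. Of the GATA, FOXA and ETS relatives and partners (28 of 29 measured), 1 was higher and 1 lower, with a median of -0.0090. GATA6 had -0.16 ± 0.073 (SE, limma, adjusted p = 0.81), and its second probe set 0.10. ETV4, an ETS factor, had 0.16 ± 0.075 (adjusted p = 0.82), and its second probe set -0.080. EHF belongs to this list too.

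The next list held XBP1 targets that fold and export secreted proteins together with sensors and factors of the other arms of the unfolded protein response, such as ATF4, ATF6 and DDIT3. All 28 genes were measured, with a median control level of 10.64, and all 28 were above the reference range, against 55.4% of all genes. At an unadjusted p under 0.05, 3 were higher and 1 lower, and the median log2 fold change was 0.021. SEC23B, a coat protein of export vesicles, had 0.23 ± 0.085 (SE, limma, adjusted p = 0.77) while another of its probe sets read -0.32. PDIA4, which forms disulfide bonds, had 0.19 ± 0.079 (adjusted p = 0.78), and DDIT3, a stress factor outside the XBP1 arm, 0.16 ± 0.070 (adjusted p = 0.79). ERN1, the stress sensor whose nuclease splices XBP1 transcript, had -0.20 ± 0.079 (adjusted p = 0.78). The other probe sets of ERN1 read -0.099 and 0.076, and the second of PDIA4 read 0.072.

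Mucins, trefoil factors and genes of mucin glycosylation (24 of 24 measured) gave 1 higher and 1 lower and a median of 0.0046. C1GALT1, which builds the core of mucin O-glycans, had -0.34 ± 0.088 (SE, limma, unadjusted p = 0.0020, adjusted p = 0.62), with all 3 arrays labelled SCGB3A1 below the controls, but its other probe sets read -0.11 and 0.026. Both probe sets of the membrane mucin MUC15 read higher without overlap, 0.26 ± 0.080 and 0.29 ± 0.082 (SE, adjusted p = 0.72 and 0.70). MUC20, another membrane mucin, had 0.21 ± 0.097 (adjusted p = 0.81), and its other probe sets read 0.21, 0.040 and -0.071. Only 7 of the 24 genes were above the reference range, against 55.4% of all genes.

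Of the basal and mesenchymal genes (20 of 24 measured), the counterpart of the luminal program, 17 had a log2 fold change below 0. Over all genes, 45.7% did. The largest values in this list went the other way. KRT5 and KRT14, keratins of basal cells, each had a log2 fold change of 0.56 (SE 0.094 and 0.11, limma, adjusted p = 0.17 and 0.29), and ZEB1, a repressor of epithelial genes, had -0.25 ± 0.078 (adjusted p = 0.72). The other probe sets of ZEB1 read -0.20, -0.038 and 0.045, all with overlap. In the main fit KRT5 met the study's signature criteria, and KRT14 missed them by its adjusted p. At adjusted p 0.05, KRT5 passed with an intensity trend (limma, adjusted p = 0.020) and KRT14 did not (0.16). Over the other alternatives the adjusted p of KRT5 ran from 0.068 to 0.93. The list counted 2 higher and 2 lower at an unadjusted p under 0.05. Its median was -0.071, and leaving out SCGB3A1 replicate 3 gave -0.13, while leaving out SCGB3A1 replicate 1 gave -0.040. The median was -0.11 without control replicate 1 and -0.041 without control replicate 2.

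Of the markers of other cell types (17 of 18 measured), 0 were higher and 1 was lower, with a median of -0.015. The lower one was COL1A1, a fibrillar collagen of stromal cells, at -0.21 ± 0.082 (SE, limma, adjusted p = 0.78).

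**Figure D5:**
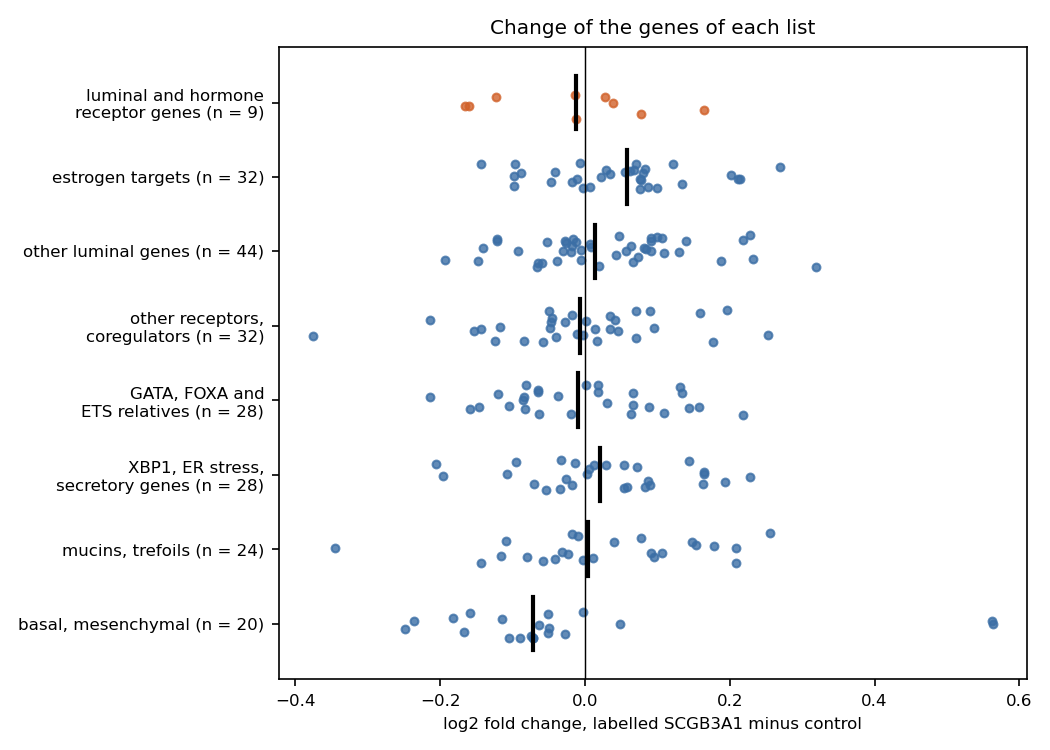
Log2 fold change, labelled SCGB3A1 minus control (horizontal axis), of each measured gene by list (vertical axis), with points for genes and bars for list medians. The 9 luminal and hormone receptor genes lie between -0.17 and 0.16. The 2 points at 0.56 in the basal and mesenchymal list are KRT5 and KRT14, while 17 of the 20 genes of that list lie below 0.

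The genes whose profile over the 6 arrays lay nearest to those of the members with the highest control levels were found by the root mean square difference of mean-centered log2 values among 41061 probe sets. They were PAX8 (0.017) and SCLT1 (0.018) for XBP1, C5orf15 (0.013) and TRIM38 (0.018) for GATA3, and LRRFIP1 (0.017) and OBP2A (0.018) for MUC1. The SDs of these members over the 6 arrays were 0.14, 0.083 and 0.088. PAX8 (control mean 7.05) and LRRFIP1 (6.30) were within the reference range, and the others were above it. The nearest of 41061 probe sets over 6 arrays is close by selection, so these matches show no relation between the genes.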

How the data were processed

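Total RNA (100 ng per sample) was labeled and hybridized to Affymetrix Human Genome U133 Plus 2.0 arrays, with 1 sample per array. The authors used Chipster (version 3.8.0) for robust multiarray average (RMA) normalization and deposited log2 values. RMA forces the arrays to 1 distribution, so a change in total RNA per cell cannot be seen, and it makes fold changes of weak signals too small. The number of arrays limits the precision. From 54675 probe sets, 62 manufacturer controls were left out. Gene symbols came from the array annotation held by GEO, checked by identifier against RefSeq (GRCh38.p14). A single symbol was given for 41091 probe sets, several for 1801 and none for 11721, and only the first were named.

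All 54613 probe sets were fitted together with limma (version 3.58.1, R 4.3.3), by lmFit and eBayes, two-sided, with Benjamini–Hochberg correction over all of them, and the fit was tested on simulated data. A listed gene was counted by its brightest probe set, averaged over the 6 arrays. The members and lists were chosen with earlier results of these data known. Named genes were all members, SCGB3A1, in each pathway list (not the background or other cell type lists) the 3 with the smallest p or any past adjusted p 0.05, and the 2 nearest profiles of the 3 members with the highest control level. Markers of the cell type check, COL1A1, ATF4, ATF6, DDIT3 and the targets said to be so were named outside this rule, after their values were seen. List genes with no probe set of their own symbol were not analyzed here. Alternatives were median centering, repeated quantile normalization, an intensity trend, weights per array, leaving out each array, a replicate block, removal of dim or of _x_at and _s_at probe sets, 1 probe set per gene or their mean, and another threshold or background reference.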

Additional observations from a re-analysis of the deposited data

How the results depend on the processing

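In every alternative run, 0 member probe sets passed adjusted p 0.05 (of all listed genes, KRT5 did, with an intensity trend), and the smallest adjusted p ran from 0.34 with array weights to 0.9994 without SCGB3A1 replicate 2. Over all probe sets the 10 calls became 19 with an intensity trend, 16 with array weights and 6 without dim probe sets. They became 17 under the signature criteria, KRT5 among them, and 1 to 6 with an array left out. Replicate numbers gave no clear pairing, with correlations of deviations of 0.15, -0.14 and -0.087 for same-numbered arrays. The highest correlation, 0.25, was between control replicate 2 and SCGB3A1 replicate 3. These values cannot show that the samples were unpaired. With a replicate block 4 probe sets passed and 0 members. Member probe sets above background were 23 with the lower quartile of all probe sets as the limit. The member median was -0.068 without dim probe sets and -0.059 to 0.018 with an array left out. Without _x_at and _s_at probe sets the medians were -0.041 for the factor relatives, -0.012 for the XBP1 and secretory list and 0.041 for mucins, and GATA3 read 0.060 and ELF3 0.023. Without dim probe sets the factor relatives gave -0.041. With probe sets averaged per gene, receptors and coregulators gave 0.012, the XBP1 and secretory list 0.0063, other cell types 0.025, SPDEF -0.025 and MUC1 -0.0073. With an array left out, estrogen targets ran from 0.020 to 0.063, other luminal genes from 0.022 to 0.042, basal and mesenchymal genes from -0.13 to -0.040, receptors and coregulators from -0.013 to 0.013, factor relatives from -0.035 to 0.018, the XBP1 and secretory list from 0.016 to 0.034, mucins from -0.013 to 0.056, and other cell types from -0.053 to 8.8e-06. Of the members that changed sign, PGR ran from -0.029 to 0.085, FOXA1 from -0.088 to 0.059, ELF3 from -0.090 to 0.058 and MUC1 from -0.029 to 0.10. The cause of these shifts was not tested. SCGB3A1 stayed between -0.26 and -0.097 with an array left out and has no value without dim probe sets, nor do PGR, FOXA1 and TFF1. SPDEF and MUC1 have none without _x_at and _s_at probe sets.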
